A study of Mus musculus with 8 samples.

Results

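Translation factors are the soluble proteins that bring mRNA, the initiator tRNA and the aminoacyl-tRNAs to the ribosome. The transcripts of 62 genes for eukaryotic initiation factors 1 to 6 (Eif genes) and elongation factors 1 and 2 (Eef genes), with their named kinases and binding proteins, were followed in single myocardial cells of the mouse embryo. They were chosen by name, as every gene symbol on the array that begins with Eif1 to Eif6 or with Eef1 or Eef2, leaving out Eif2s3x and Eif2s3y. The array carried 90 probes for these 62 genes, among 29154 probes for 21515 genes with a RefSeq symbol. A gene with several probes was represented by the probe of highest mean signal over the 8 arrays.

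Hearts were taken at embryonic day 8.5 (9 somites) and dissociated, and the cDNA of each single cell was amplified, labelled with Cy3 and hybridised to an Agilent one-colour array of 60-base probes. WT cells carried 2 floxed Sox17 alleles and intact Mesp1 (Mesp1+/+ Sox17flox/flox, 4 cells), and KO cells carried the same floxed alleles together with Mesp1Cre/+ (4 cells). Mesp1-Cre is active in early mesoderm, so that Sox17, an HMG-box transcription factor gene, is deleted throughout the heart lineages, and KO cells also differ from WT cells in carrying Cre at the Mesp1 locus. The question is whether myocardial cells of such embryos differ in their transcripts. No embryo or litter was named for any cell, so each genotype counts as 1 sample, no test was made, and every SD below is the spread between 4 cells. Each genotype was hybridised on a slide of its own, and the effects of slide and genotype cannot be told apart.

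Initiation begins when eIF2, carrying GTP and the initiator tRNA, joins the small ribosomal subunit with eIF1, eIF1A, eIF3 and eIF5, and the eIF4 factors recruit this complex to the capped end of an mRNA. Elongation then needs eEF1A, which delivers aminoacyl-tRNA, its exchange factor eEF1B, and eEF2, which moves the ribosome along. The pathway is regulated by kinases that phosphorylate the alpha subunit of eIF2 and by 4E-binding proteins that block the cap-binding protein eIF4E. Cardiomyocytes of the heart tube are known for rapid synthesis of contractile protein.

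Each cell had signal for all 10 myocardial marker genes. WT cells had signal for 3 to 4 of 10 endothelial markers and KO cells for 2 to 4, with a summed log2 level of 9.93 to 10.16 in WT and 9.81 to 10.12 in KO cells, and Cdh5, Tek, Emcn, Nfatc1 and Tal1 were detected in 0 cells. Kdr and Plvap were detected in 8 cells and Pecam1 in 4 WT and 2 KO cells. Tie1 was detected in 1 WT cell and 0 KO cells, and Etv2 in 1 WT and 2 KO cells. Among markers of other tissues, Ttr (endoderm) and Wt1 (epicardium) were detected in 2 WT and 0 KO cells. Foxa2 (endoderm) was detected in 0 WT and 1 KO cells, and Sox10 (neural crest) in 2 cells of each genotype. The epicardial sum reached 9.03 in WT cells against 6.64 at the floor in KO cells. The endoderm and neural crest sums were at the floor in every cell, at 8.23 and 6.64. The part of these markers in the results was not tested. Of 6 erythroid markers, 0 were detected. Detected here means that the scanner software found the probe well above background in that cell. The share of all genes detected was 22.5%, 26.1%, 32.0% and 30.2% in WT cells 1 to 4, against 28.4%, 20.1%, 19.7% and 24.0% in KO cells 1 to 4. Sox17 itself was detected in 0 of 8 cells, so the deletion could not be checked on these arrays.

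The translation factors were read in these cells more often than genes in general. Of the 62 genes, 57 were detected in at least 1 cell and 15 (24.2%) in all 8 cells, against 9.68% of all genes. In the other direction, 5 (8.06%) were detected in 0 cells, against 46.6% of all genes. These 5 were Eef1a2, the form of eEF1A known from adult muscle and neurons, Eif4e1b, known from oocytes, Eif4e3, Eif5b, the GTPase that joins the ribosomal subunits, and Eef2kmt, a methyltransferase that acts on eEF2. Detection in the 4 cells of either genotype made a gene present, and 31 of the 62 were present, against 14.9% of all genes. The map of signals by cell shows rows that are coloured in every cell, mainly elongation factors and eIF3 subunits, beside rows that are coloured in a few cells only.

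**Figure D1:**
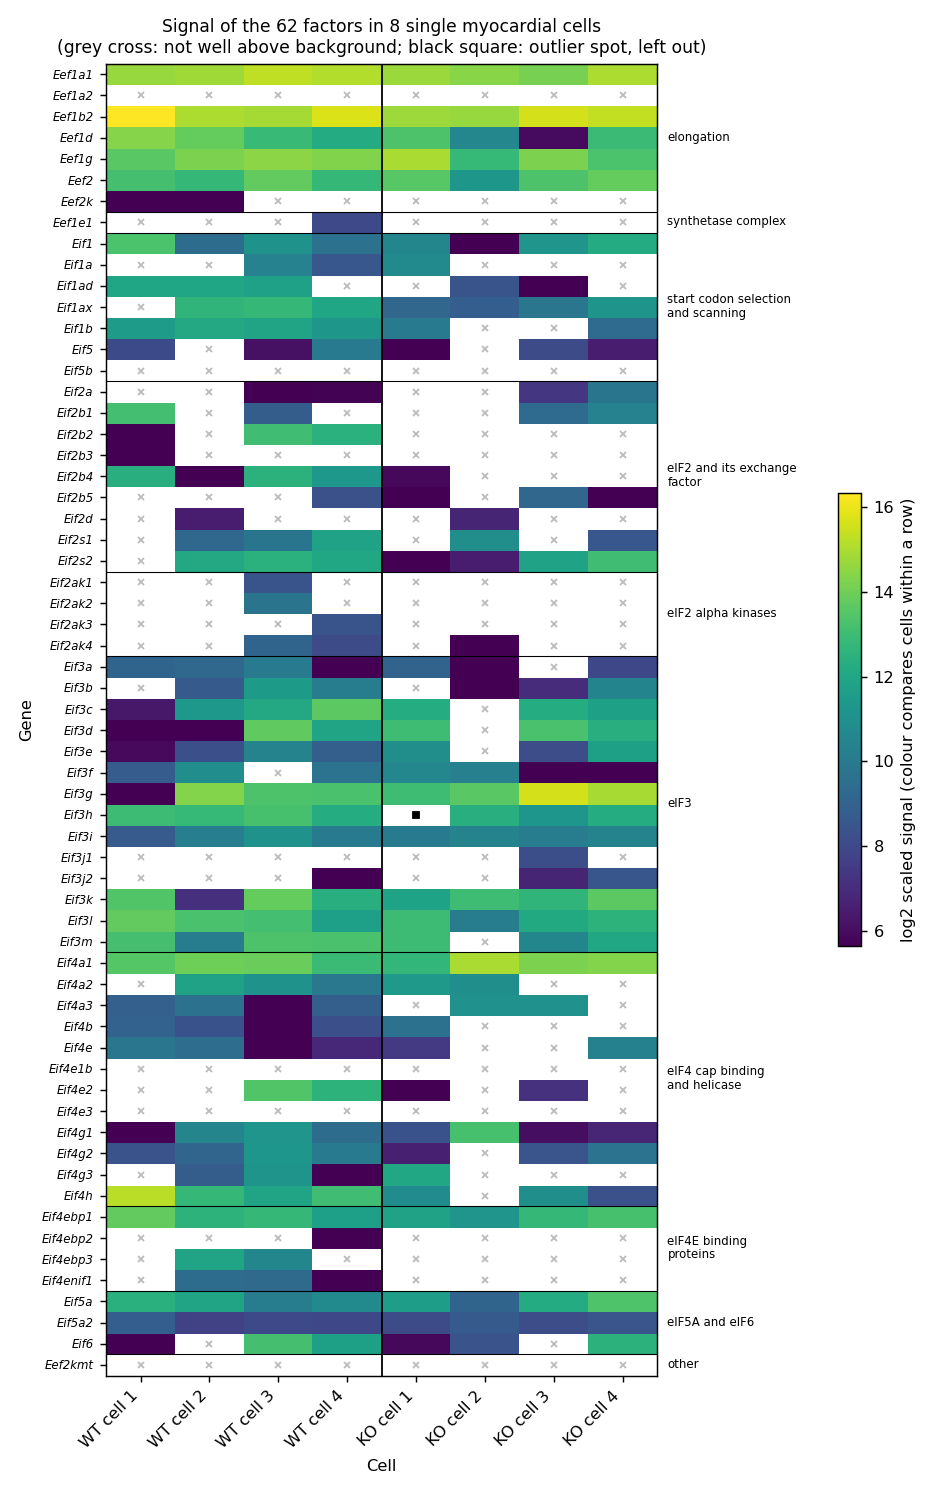
Log2 scaled signal of the 62 genes (rows, by role) in the 8 cells (columns, WT left of the line). Colour gives the signal of detected cells, the darkest being the floor of 5.64, grey crosses mark cells in which the probe was not well above background, and the black square marks the outlier spot of Eif3h; 15 rows are coloured in all 8 cells and 5 rows in none.

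Fewer translation factors were detected in KO cells. The number detected was 36, 40, 47 and 48 in WT cells 1 to 4, against 36, 28, 35 and 36 in KO cells 1 to 4. The WT mean was 42.75 ± 5.74 and the KO mean 33.75 ± 3.86 (SD between cells, n = 4 each). WT cell 1 and KO cells 1 and 4 shared the value of 36, and no KO cell lay above any WT cell. KO cell 2 lay apart from the other KO cells, and without it the KO mean was 35.67 and the difference fell from 9.00 to 7.08 genes. Over all genes the mean share detected was 27.7% ± 4.24 in WT and 23.1% ± 4.06 in KO cells. Detection of all genes thus moved in the same direction, and its part in the count of translation factors was not tested. KO cell 1 is the exception, since it detected more of all genes than WT cells 1 and 2 and no more translation factors than WT cell 1. The count includes 1 probe, that of Eif3h in KO cell 1, whose spot was an outlier and which was counted as not detected, also in the comparison that follows.

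**Figure D2:**
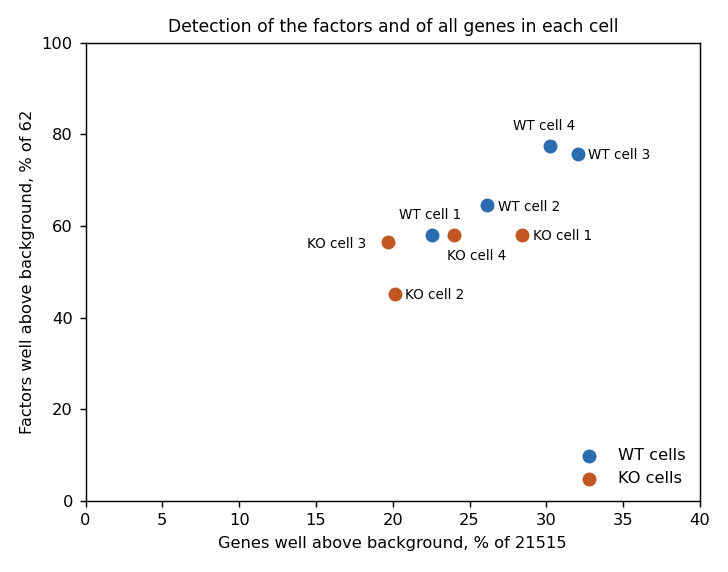
Share of the 62 translation factor genes (vertical axis, %) against the share of all 21515 genes (horizontal axis, %) that were well above background, 1 point per cell. WT cells 3 and 4 have the highest shares on both axes, KO cell 2 has the lowest share of factors at 45.2%, and KO cell 1 lies to the right of WT cells 1 and 2.

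Among the 42 genes detected in 1 to 7 cells, 29 (69.0%) were detected in more WT than KO cells, against 53.7% of the 9400 such genes on the array, and 6 (14.3%) in more KO than WT cells, against 27.2%. The latter number was 11 without WT cell 3 or without WT cell 4 and 10 without KO cell 1 or without KO cell 2. It was 7 without WT cell 1 or KO cell 3 and 8 without WT cell 2 or KO cell 4. Genotypes of 3 and 4 cells are then compared by share, and no ties remain. With single cells left out, the number in more WT than KO cells was 26 to 34. These were 71.8% to 82.5% of the genes detected in some cells only, against 59.3% to 69.8% of all such genes. Detection in all 4 WT cells but not in all 4 KO cells was seen for 13 translation factors, and the reverse for 3. Over all genes the 2 counts were 818 and 301, which lean the same way, so the direction is not particular to translation factors. The 29 were spread over the roles, with 7 among the cap-binding and helicase factors, 6 among eIF3 subunits, 4 each in the eIF2 group and its kinases, 3 each among scanning factors and 4E-binding proteins, and 1 each for the eEF2 kinase and Eef1e1.

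The signals were then compared between genotypes, after each array was scaled to a common median and values under 50 were set to 50 (5.64 on the log2 scale). A difference was called when the genotype means lay at least 5-fold apart (2.32 as a log2 difference), following the study. By this rule 5 of the 31 present genes differed (16.1%, against 13.3% of the 3202 present genes on the array). Of these, 4 were lower in KO cells (12.9%, against 10.6%), namely Eif2b4, Eif4h, Eif1b and Eef1d, and 1, Eif3g, was higher (3.23%, against 2.75%). Both shares were near those of all present genes, so the counts say nothing particular about translation factors. In 2 genes, Eif4h and Eif1b, every KO cell lay below every WT cell (6.45%, against 3.28% of present genes), and in 0 genes did every KO cell lie above, against 2.44%. The number lower was 10 of 36 present genes without WT cell 1, when 16.4% of all present genes were lower, and 7 of 31 without KO cell 4, when 11.7% were. The number higher was 0 without WT cell 1 or KO cell 3 and 2 without WT cell 3, WT cell 4 or KO cell 2. The same 5-fold rule gave 4 more genes lower in KO cells among the 31 not present, Eif1ad, Eif2b2, Eif4e2 and Eif4ebp3. This was 12.9%, against 2.13% of the 18313 genes not present, but these shares are not alike in detection. The 18313 include the 10032 genes detected in 0 cells, and the 31 include 5 such genes. A share over detected genes only was not computed. Other probes of Eif1ad and Eif4e2 did not read lower in KO cells.

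At 2-fold, 11 of the 31 present translation factors were lower in KO cells and 3 higher, against 22.8% and 12.6% of all present genes. The median KO minus WT difference over the 31 genes was -0.59 on the log2 scale, with 22 genes below 0 and 9 above, and 17 differed by less than 2-fold. Over all 3202 present genes the median was 0.00, with 43.4% below 0, 47.7% above and 8.93% at the floor in all cells. Over the 12 translation factors that each of the 8 cells detected above the floor the median was -0.22, with 7 below 0 and 5 above, and over the 1109 such genes on the array it was 0.22. Scaling over all probes gave 26 genes below 0 in place of 22 and turned the sign of Eif3i, Eif4a3, Eif5a and Eif5a2, and leaving out 1 cell turned the sign of 11 of the 31. The spread between cells was wide, with a median SD of 1.48 in WT and 1.80 in KO cells over the 31 genes, against 0.94 and 0.90 over all present genes, which include genes at the floor in every cell. Over those 12 genes it was 0.77 and 0.94, and over the 1109 it was 0.90 and 0.86.

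**Figure D3:**
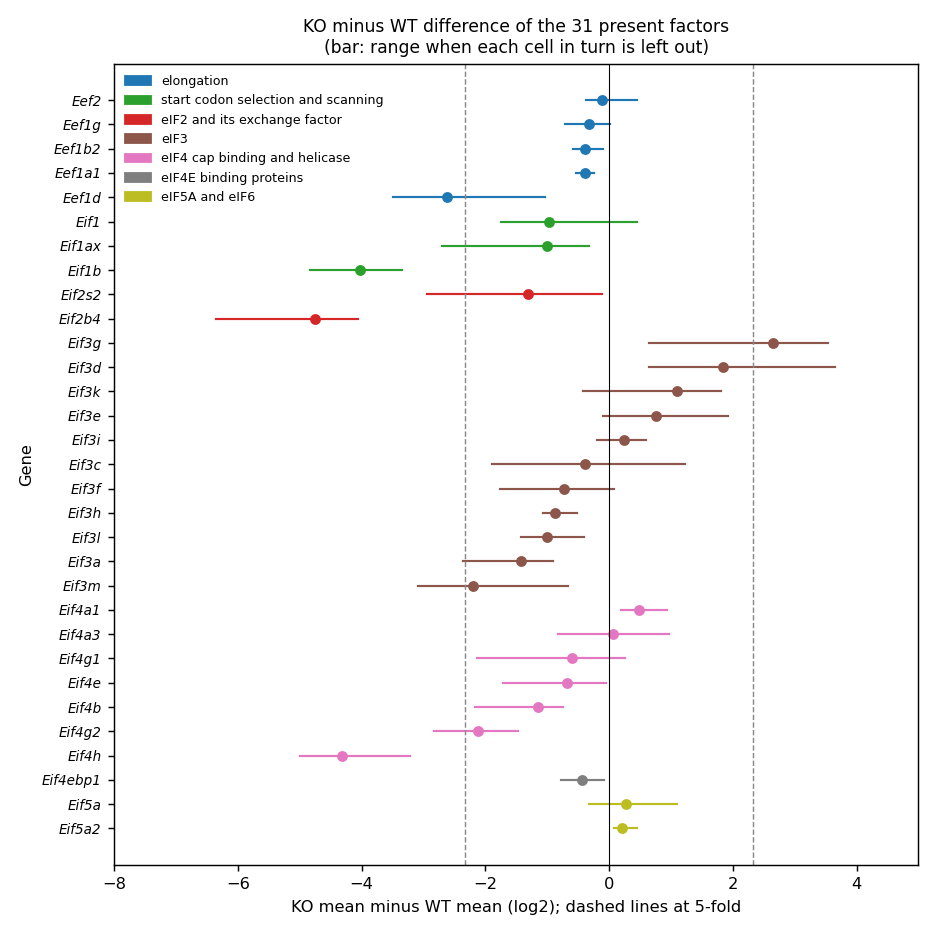
KO mean minus WT mean on the log2 scale for the 31 present translation factors, coloured by role. Points are the differences over all 8 cells, horizontal bars their range when each cell in turn is left out, and dashed lines mark 5-fold; Eif2b4, Eif4h and Eif1b keep their whole bar beyond the line, while those of Eef1d and Eif3g cross it.

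The elongation factors present were read in every cell. Of 7 genes, 5 were detected in all 8 cells (Eef1a1, Eef1b2, Eef1d, Eef1g and Eef2), 1 in 0 cells (Eef1a2), and Eef2k, the kinase that inactivates eEF2, in WT cells 1 and 2 at the floor. Eef1a1, the main eEF1A gene, read 14.67, 14.80, 15.31 and 15.08 on the log2 scale in WT cells 1 to 4, against 14.72, 14.42, 14.14 and 15.01 in KO cells 1 to 4. These means of 14.97 ± 0.28 and 14.57 ± 0.38 (SD, n = 4 cells each) differed by -0.39. In size this was above the SD of the WT cells and close to that of the KO cells. The ranges of the 2 genotypes overlapped.

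The Eef1a1 probes illustrate how such abundant messages are measured. One probe was placed on chromosome 9 (mm9 chr9:78326385-78326444, minus strand) and the other on chromosome 15 (chr15:60301082-60301141, plus strand), away from the gene. Both are shown by 30 bases in the direction of the transcript, with the 10 bases they share in capitals, since they show that the probes are neighbours on 1 transcript although the files place them on different chromosomes.
Eef1a1, chromosome 15 probe, bases 31 to 60: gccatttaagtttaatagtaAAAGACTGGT
Eef1a1, chromosome 9 probe, bases 1 to 30: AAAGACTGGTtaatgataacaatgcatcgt
Both were detected in 8 of 8 cells, and the differences were -0.19 for the chromosome 15 probe and -0.39 for the chromosome 9 probe. Of the 90 probes, 7 were placed on another chromosome than their gene and 5 had no position. The probes that stand for Eef1g, Eif3m and Eif4a1 are among the former and those for Eif3f and Eif3i among the latter, so these 5 genes may share signal with near-identical copies and are uncertain.

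Of the eEF1B subunits, Eef1b2, the alpha subunit with exchange activity, read 16.33, 15.01, 14.88 and 15.76 in WT and 14.75, 14.68, 15.66 and 15.36 in KO cells. Eef1g, the gamma subunit, read 13.59, 14.23, 14.47 and 14.29 in WT and 14.97, 12.79, 14.20 and 13.31 in KO cells. Eef2 read 13.17, 12.75, 13.77 and 12.77 in WT and 13.57, 11.30, 13.34 and 13.78 in KO cells. In these 3 genes the cells of the genotypes overlapped, and the differences of -0.38, -0.33 and -0.11 were smaller than the SD of the WT cells (0.68, 0.38 and 0.48). With scaling over all probes they were -0.73, -0.68 and -0.46, which exceeds that SD in Eef1b2 and Eef1g, and Eef1a1 differed by -0.74. All 5 elongation factors present had a KO mean below the WT mean, but without KO cell 2 the differences of Eef2 and Eef1g were 0.45 and 0.02.

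Eef1d, the other exchange subunit of eEF1B, was the elongation factor with the largest difference. It read 14.38, 13.81, 12.90 and 12.20 in WT cells 1 to 4, against 13.34, 10.59, 5.97 and 12.93 in KO cells 1 to 4. KO cells 1 and 4 lay within the WT range, and KO cell 3 was close to the floor. The difference of -2.62 (6.14-fold) became -1.04 without KO cell 3 and -2.26 without WT cell 1, under 5-fold in both cases. The probe (chr15:75725929-75725988, minus strand) is shown by its last 30 bases, with a match to the hexamer ATTAAA in capitals.
Eef1d, bases 31 to 60: gtgtgtgaggacctgctgagATTAAAgact
The cDNA was primed on the poly(A) tail, and a polyadenylation signal hexamer, AATAAA or ATTAAA, normally lies close to that tail. Whether this match is such a signal was not tested. The probe was detected in 8 of 8 cells.

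Among the scanning factors, which hold the initiation complex open until a start codon is met, Eif1b stood apart. Eif1 and Eif1b encode near-identical forms of eIF1. Eif1b read 11.54, 12.11, 11.90 and 11.29 in WT cells 1 to 4, against 10.10, 5.64, 5.64 and 9.37 in KO cells 1 to 4. Every KO cell lay below every WT cell, and KO cells 2 and 3 were not detected. The means of 11.71 ± 0.37 and 7.69 ± 2.38 differed by -4.02 (16.2-fold, or -5.80 on the log2 scale with no floor), and the difference lay between -4.83 and -3.34 when single cells were left out. Its probe (chr9:120404173-120404232, plus strand), shown by its first 30 bases as it carries the difference between genotypes, had neither hexamer.
Eif1b, bases 1 to 30: gcgtttatttaatcattcagacttccactc
Eif1 was detected in all 8 cells and read 13.32, 9.43, 11.09 and 9.65 in WT and 10.55, 5.64, 11.21 and 12.21 in KO cells. For Eif1 the cells of the genotypes overlapped, and the difference of -0.97 turned to 0.45 without KO cell 2. The low value of KO cell 2 in both genes goes with the low number of factors detected in that cell, and its part in them was not tested. Eif1b was low in KO cell 3 as well, where the Eif1 probe used was not. The other Eif1 probe, placed on chromosome 1 and so away from the gene, was also detected in all 8 cells. It read 7.87 in KO cell 3, against 12.22 and 11.89 in KO cells 1 and 4 and 7.04 to 11.39 in WT cells. The difference of that probe was -0.01.

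Of the other scanning factors, Eif1ax and Eif1a encode forms of eIF1A. Eif1ax was read in 3 WT and 4 KO cells, at 5.64, 12.63, 12.77 and 11.96 in WT and 9.17, 8.82, 9.85 and 11.16 in KO cells. The 3 WT cells in which it was detected lay above all KO cells and WT cell 1 below them. This left a difference of -1.0, which was -2.70 without WT cell 1 and 0.10 with no floor. Eif1a was detected in 2 WT and 1 KO cells and Eif5, the GTPase-activating protein of eIF2, in 3 of each. Eif1ad, an eIF1A domain gene, was read in 3 WT cells at 11.97, 11.93 and 11.74. It was read in 2 KO cells, 1 of them at the floor and the other at 8.41. Its other probe was detected in 0 WT and 2 KO cells, with a difference of 0.35.

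The eIF2 group comprises the subunits of eIF2 and the 5 subunits of eIF2B, the exchange factor that reloads eIF2 with GTP. Eif2b4, the delta subunit of eIF2B, was called lower in KO cells. It read 12.33, 5.64, 12.51 and 11.33 in WT cells 1 to 4, against 5.88, 5.64, 5.64 and 5.64 in KO cells 1 to 4. WT cell 2 was well above background on the array but at the floor after scaling, and in KO cells only cell 1 was detected. The means of 10.45 ± 3.25 and 5.70 ± 0.12 differed by -4.75, which the floor sets in part, since with no floor the difference was -7.43, and leaving out WT cell 2 or WT cell 3 gave -6.35 or -4.07, the extremes. WT cell 2 lay below KO cell 1, so the genotypes overlapped at the floor. The probe (chr5:31489943-31490002, minus strand) holds the hexamer in its last 30 bases.
Eif2b4, bases 31 to 60: gggaacaagggtcAATAAAaagcttactcc
Eif2b2, the beta subunit, was detected in 3 WT cells and 0 KO cells, and read 5.64, 5.64, 13.05 and 12.45 in WT cells. With WT cells 1 and 2 and all KO cells at the floor, this is 11.7-fold lower in KO. The fold depends on the floor and rests on WT cells 3 and 4.

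The other eIF2B subunits gave no common direction. Eif2b1 was detected in 2 WT and 2 KO cells, Eif2b3 in 1 WT cell at the floor, and Eif2b5, the catalytic subunit, in 1 WT and 3 KO cells. Of the eIF2 subunits, Eif2s1 (alpha) was detected in 3 WT and 2 KO cells. Eif2s2 (beta), the other present gene of the group, read 5.64, 12.08, 12.46 and 12.05 in WT and 5.64, 6.49, 11.82 and 13.03 in KO cells. Its difference of -1.31 became -2.95 without WT cell 1 and -0.11 without KO cell 1, and the genotypes overlapped. The other Eif2s2 probe was above the floor in KO cell 4 alone, with a difference of 0.57. Eif2a and Eif2d, which can bring tRNA to the ribosome without eIF2, were detected in 2 WT and 2 KO cells and in 1 of each.

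All 4 kinases of eIF2 alpha were detected in more WT than KO cells, though in few cells of either. Eif2ak1 (the haem-regulated kinase) and Eif2ak2 (the double-stranded RNA-activated kinase PKR) were read in WT cell 3 alone, at 8.41 and 9.75. Eif2ak3 (PERK, of the endoplasmic reticulum) was read in WT cell 4 alone at 8.40. Eif2ak4 (GCN2, which senses uncharged tRNA) was read in WT cells 3 and 4 at 9.09 and 8.13, and was detected at the floor in KO cell 2. WT cells 3 and 4 were also the cells with the most genes detected, at 32.0% and 30.2%, and the part of this in the kinase signals was not tested.

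The eIF3 complex, the scaffold on the small subunit, was the group with the most present genes, 11 of 14. Of these 11, 6 had a KO mean below and 5 above the WT mean, and differences ran from -2.21 (Eif3m) to 2.64 (Eif3g). Eif3g was the single translation factor called higher in KO cells. It read 5.64, 14.34, 13.36 and 13.26 in WT cells 1 to 4, against 13.03, 13.61, 15.63 and 14.92 in KO cells 1 to 4. WT cell 1 was at the floor, and WT cells 2 to 4 overlapped KO cells 1 and 2. The difference of 2.64 (6.25-fold) became 0.64 without WT cell 1 and 2.2 without KO cell 3, and it was 2.08 after quantile normalization and 2.24 with scaling over all probes, each under 5-fold. Its probe (chr9:20699095-20699154, minus strand), shown by its first 30 bases, had neither hexamer.
Eif3g, bases 1 to 30: ggaggatgctgcacgtgccattgcaggggt

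The remaining eIF3 subunits named by signal or size of difference overlapped between genotypes or differed by less than 5-fold. Eif3l read 13.76, 13.26, 13.14 and 11.66 in WT and 12.98, 10.17, 12.14 and 12.53 in KO cells, with a difference of -1.0. Eif3k read 13.45, 7.13, 13.81 and 12.33 in WT and 11.85, 12.99, 12.63 and 13.64 in KO cells, and its difference of 1.10 turned to -0.41 without WT cell 2. The other Eif3k probes differed by 1.38 and -0.77, the latter being a probe with no position. Eif3i read 8.71, 10.23, 11.08 and 10.08 in WT and 10.02, 10.44, 10.18 and 10.43 in KO cells, a difference of 0.24 that turned to -0.20 without WT cell 1 and to -0.11 with scaling over all probes.

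Eif3h, a non-core subunit, read 12.98, 12.81, 13.24 and 12.24 in WT cells and 12.33, 11.25 and 12.27 in KO cells 2 to 4, and the outlier spot of KO cell 1 was left out of the mean. The difference was -0.87 over these 7 cells and -2.04 with the outlier spot kept. A second Eif3h probe was detected in KO cell 1 at the floor. Eif3d, the subunit that can itself bind the cap, was lowest in WT cells 1 and 2 and in KO cell 2, all at the floor, and its difference of 1.84 became 0.65 without WT cell 1 and 3.65 without KO cell 2. Eif3m read 13.17, 10.18, 13.36 and 13.28 in WT and 12.95, 5.64, 10.54 and 12.03 in KO cells, so that cell 2 was the lowest of each genotype. KO cell 2 was at the floor in 5 of the present eIF3 genes (Eif3a, Eif3c, Eif3d, Eif3e and Eif3m).

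Of the 12 eIF4 factors, 2 were detected in all 8 cells and 2 in 0 cells. Over all genes detected in 1 to 7 cells, 53.7% were detected in more WT cells and 27.2% in more KO cells. Among the eIF4 factors, 7 genes were detected in more WT than KO cells and 0 in more KO than WT cells. Eif4h, which stimulates the helicase eIF4A, was the gene of the group called lower. It read 15.22, 12.76, 11.89 and 13.04 in WT cells 1 to 4, against 10.79, 5.64, 10.95 and 8.28 in KO cells 1 to 4. Every KO cell lay below every WT cell, KO cell 2 was not detected, and the nearest cells of the genotypes were 11.89 and 10.95. The means of 13.23 ± 1.42 and 8.91 ± 2.50 differed by -4.31 (19.9-fold), and by -4.99 to -3.22 when single cells were left out. The probe (chr5:135095784-135095843, minus strand), shown by its first 30 bases, had neither hexamer.
Eif4h, bases 1 to 30: ccaaacacttaacacattcagttctatgac

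The eIF4A helicases did not share this pattern. Eif4a1 read 13.53, 13.95, 13.90 and 12.92 in WT and 12.72, 14.98, 14.21 and 14.36 in KO cells, a difference of 0.49. Eif4a2 was detected in 3 WT and 2 KO cells, and Eif4a3, the helicase of the exon junction complex, in 4 WT and 2 KO cells with a difference of 0.07 that turned to -0.29 with scaling over all probes and to -0.02 with scaling on the 75th percentile. Eif4b, another stimulator of eIF4A, read 9.02, 8.32, 5.64 and 8.24 in WT cells and 9.66 in KO cell 1, and the other KO cells were not detected. The range of Eif4b in KO cells thus enclosed that of the WT cells.

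Of the eIF4G scaffolds, Eif4g1 was detected in all 8 cells, with a difference of -0.59. Eif4g2, a shortened scaffold without the eIF4E site, read 8.39, 9.14, 11.24 and 10.10 in WT and 6.58, 5.64, 8.45 and 9.69 in KO cells, a difference of -2.13 with overlap. Eif4g3 was detected in 3 WT and 1 KO cells. Of the cap-binding proteins, Eif4e read 9.84, 9.48, 5.64 and 6.86 in WT and 7.45, 5.64, 5.64 and 10.34 in KO cells, a difference of -0.68. Eif4e2, the form that can repress translation, was read above the floor in WT cells 3 and 4, at 13.41 and 12.55, and in KO cell 3 at 7.17.

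The 4E-binding proteins were represented mainly by Eif4ebp1, which was detected in all 8 cells. It read 13.78, 12.54, 12.76 and 11.66 in WT and 11.81, 11.20, 12.75 and 13.23 in KO cells, and the difference of -0.44 was within the spread of the cells. The other 3 genes of the group were detected in 0 KO cells. Eif4ebp3 was read in WT cells 2 and 3 at 11.89 and 10.53, and WT cells 1 and 4 were at the floor. It was 6.89-fold lower in KO. Eif4enif1, the carrier of eIF4E into the nucleus, was detected in WT cells 2, 3 and 4, at 9.43, 9.32 and the floor. It was 3.64-fold lower in KO. Both folds depend on the floor, at which some WT cells lay as well as the KO cells. Eif4ebp2 was detected in 1 WT cell at the floor.

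Eif5a, the hypusine-bearing factor that helps the ribosome over difficult peptide bonds, was detected in all 8 cells. It read 12.43, 11.88, 10.17 and 10.70 in WT and 11.61, 9.10, 12.21 and 13.37 in KO cells, a difference of 0.28 that turned to -0.32 without KO cell 4 and to -0.07 with scaling over all probes. Its paralogue Eif5a2 was also detected in all 8 cells, at 8.84, 7.75, 8.01 and 7.95 in WT and 8.11, 8.66, 8.17 and 8.46 in KO cells, a difference of 0.21 that was -0.14 under that scaling. Eif6, which keeps the large subunit from joining too early, was detected in 3 cells of each genotype. Eef1e1, a scaffold protein of the tRNA synthetase complex, was read in WT cell 4 alone at 8.01.

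**Figure D4:**
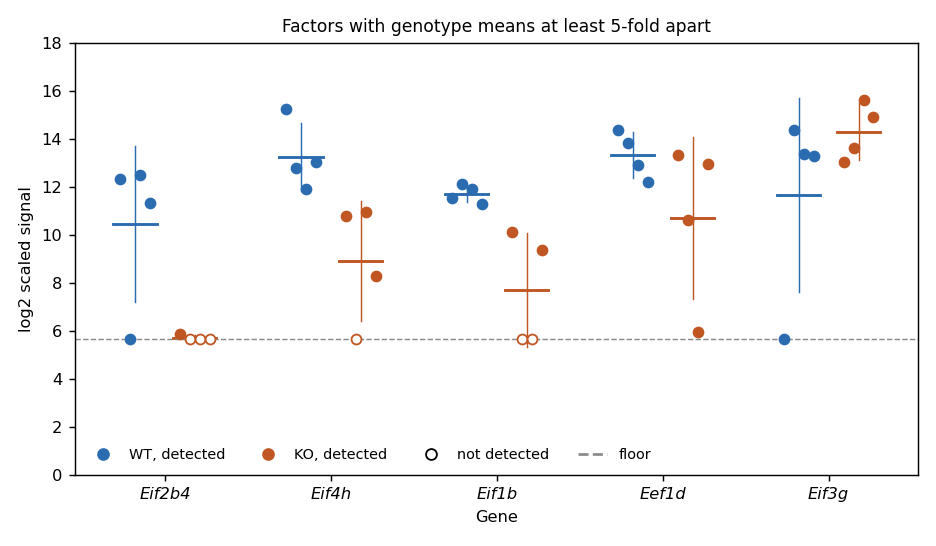
Log2 scaled signal of each cell for the 5 translation factors whose genotype means lay at least 5-fold apart. Filled points are detected cells, open points cells not well above background, thick lines means, thin lines ± 1 SD between 4 cells, and the dashed line the floor of 5.64; the cells separate fully in Eif4h and Eif1b, while Eef1d rests on KO cell 3 and Eif3g on WT cell 1.

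Genes that act with these factors were read from lists of their own. Of 53 genes measured from 7 lists (release and recycling, poly(A) binding, the mTORC1 and S6 kinase arm, eIF2 alpha phosphatases and stress targets, modification of eIF5A and eEF2, non-canonical initiation, and mitochondrial factors), 20 were present, 10 were detected in all 8 cells and 7 in 0 cells. Of the 20, 5 (25.0%) were at least 5-fold lower in KO cells and 1 (5.00%) higher, where all present genes gave 10.6% and 2.75%, and the median difference was -0.11. Ddx3x, a helicase for structured leaders, read 12.14, 11.91, 11.17 and 10.63 in WT and 5.64, 9.17, 5.64 and 5.64 in KO cells, a difference of -4.94. Abce1, which splits ribosomes after termination, read 11.37, 12.14, 11.71 and 11.89 in WT and 5.64, 5.64, 9.79 and 9.10 in KO cells, a difference of -4.23. In both every KO cell lay below every WT cell.

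The other genes called had cells that overlapped. Larp1, which binds messages with a terminal oligopyrimidine tract, differed by -3.18, Dhps, the first enzyme of hypusine synthesis, by -2.63, and the nuclear poly(A)-binding protein gene Pabpn1 by -2.52. Dph1, of the diphthamide pathway that modifies eEF2, was higher by 3.09. Rheb, the GTPase that activates mTORC1, was higher in every KO cell, at 7.74, 9.14, 6.79 and 8.43, than in any WT cell, at 5.64, 5.64, 5.65 and 6.71, and its difference of 2.11 was under 5-fold. Atf4, the transcription factor whose translation rises when eIF2 alpha is phosphorylated, was detected in all 8 cells with a difference of 0.59, and Atf3, Trib3 and Ppp1r15b were detected in 0 cells. Mtor and Tsc2 were also detected in 0 cells.

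How a factor was read depended on the probe. Of the 62 genes, 41 had 1 probe and 21 had several. In 9 of the 21 at least 1 other probe was detected in 0 cells, and in 6 of them the probe used was detected in 4 or more cells. The probe used was picked for its mean signal over the same cells, so its lead over the others is in large part fixed by that choice. In Eif4e both other probes were detected in 0 cells. Eif6 is shown because its probes span the whole range. Its 3 probes lay on the minus strand of chromosome 2, where lower positions are nearer the end of the transcript. The probe used (chr2:155645718-155645777) was detected in 6 cells, the next (chr2:155648573-155648632) in 5 and the farthest (chr2:155650902-155650961) in 0. The 3 are shown by 30 bases each, with a hexamer in capitals.
Eif6, probe used, bases 1 to 30: tgagctagtctgtaccagatgctggcagtg
Eif6, next probe, bases 1 to 30: gctgaatgaagccaagccaagtaccattgc
Eif6, farthest probe, bases 28 to 57: ttaatctctgatAATAAAacatcctggtct
The probe with the hexamer was the one that was not detected, and the files assign it to another transcript record than the other 2.

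Eif3c gave the opposite order, with the hexamer in the probe detected more often. The probe used (chr7:133690426-133690485, minus strand) was detected in 7 cells and the other (chr7:133707950-133708009, minus strand), at a higher position and so farther from the end of the transcript, in 4.
Eif3c, probe used, bases 27 to 56: ctcaccccagtcATTAAAgatctgttgaga
Eif3c, other probe, bases 1 to 30: ccaagagtattgtggataaggaaggtgtcc
A hexamer, AATAAA or ATTAAA read along the probe strand only, was held by 19 of the 90 probes (21.1%) and by 13.7% of all 55681 probes, or 17.8% of those with a RefSeq gene symbol. Of the 19, 21.1% were detected in all 8 cells, and of the 71 without it 23.9%, while 26.3% and 14.1% were detected in 0 cells. Over probes with a RefSeq symbol the shares detected in all 8 cells were 13.5% with and 7.2% without. Within the 11 genes that had probes of both kinds, the best probe with the hexamer was detected in more cells in 2, in fewer in 5 and in as many in 4. A match is a description of the letters and not evidence of a used polyadenylation site.

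**Figure D5:**
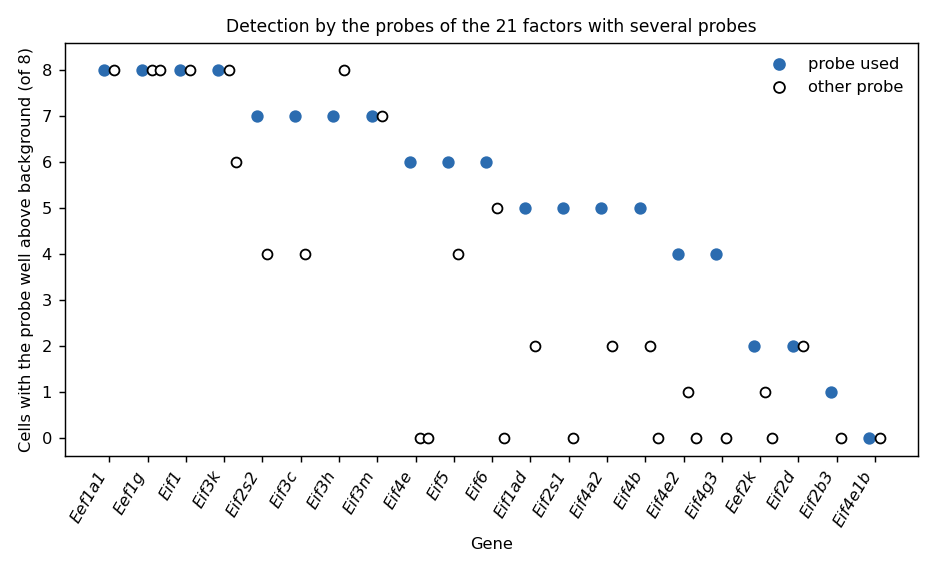
Number of cells, of 8, in which each probe was well above background, for the 21 translation factors with several probes (filled point, probe used; open points, other probes). All probes of Eef1a1, Eef1g and Eif1 read 8 cells, whereas the other probes of Eif4e, Eif2s1 and Eif4g3 read 0.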

How the data were processed

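Single-cell cDNA was primed with oligo(dT), amplified by PCR, given a T3 promoter, transcribed and labelled with Cy3 before hybridisation. The study's methods identified the cell type of each cDNA by PCR of marker genes. Arrays were read with Agilent Feature Extraction (per the file headers, 12.0.2.2, on build mm9), and the values used were the deposited intensity values on a linear scale, already corrected for background by the software, with its flags for detection and outlier spots (deposited as other columns).

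Outlier spots (146 to 220 per array) were left out, which gave 55681 probes. Arrays were shifted on the log2 scale (by -0.76 to 0.68) to a common 50th percentile over the 5301 probes detected on all 8 arrays, and values under 50 were set to 50. The study set the floor first, then scaled on the 50th percentile and centred each gene; here arrays were scaled before the floor was set and genes were not centred. With 17.1% to 26.0% of probes detected per array, many values lie at the floor, where they have no order. Differences can be understated or overstated there, and their sign can turn. With no floor Eif1ax went from -1.0 to 0.10 and Eif3f from -0.72 to 0.06. In the other direction, Eif3e went from 0.76 to -0.01 and Eif4a3 from 0.07 to -1.44. Signals of different probes were not compared. Precision is limited by 4 arrays per genotype.

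Members and lists were chosen with earlier results of these data known. Symbols were those of the array matched to a RefSeq table used for names (21515 genes), and positions and sequences are those of the files. Exon and UTR annotation was not used here. Values are given per cell for genes at least 5-fold apart, for the 5 largest differences each way among genes that all 8 cells detected above the floor, for the 10 genes of highest mean signal, for genes without overlap and, in part, for paralogues. The alternatives were another floor, scaling (75th percentile, all probes, quantile), background correction (normexp, offset 50, limma 3.58.1), detection flag, presence filter, probe choice, cell summary and fold (2-fold and 10-fold), and each cell left out. Steps were tested on simulated data. Python 3.11.15, numpy 2.4.6, pandas 2.3.3 and R 4.3.3 were used.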

Additional observations from a re-analysis of the deposited data

Results flagged for a closer look

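Within the 2 genotypes 41 groups of 4 cells were examined for a cell that stands apart (the gap to its nearest neighbour divided by the range of the group, above Dixon's critical value for 4), and 2 met it, about the 1 in 20 that chance gives. For Eif3m in WT cells, WT cell 2 read 10.18 on the log2 scale, while the other 3 lay between 13.17 and 13.36. For the number of translation factors detected in KO cells, KO cell 2 had 28, while the other 3 had 35 to 36.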

How the results depend on the processing

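Of the genes called, Eif2b4, Eif4h and Eif1b kept a difference of at least 5-fold under every alternative run, though these 3 do not pass a filter for detection in all 8 cells, and Eef1d and Eif3g did not keep it. Eef1d differed by -2.30 after normexp correction and by -1.59 between medians of the cells, and Eif3g by 0.95 between medians. The number of genes at least 5-fold lower, 4, became 9 with no floor, 1 among the 15 genes detected in all 8 cells, 8 with no filter on the 62 genes, 8 with medians of cells, of which 3 were among the 4, and 11 at 2-fold. The number at least 5-fold higher, 1, became 0 with scaling over all probes, 0 after quantile normalization, 0 at 10-fold and 3 at 2-fold, and with medians of cells it was 1, Eif3d in place of Eif3g. Leaving out single cells gave 4 to 10 genes lower, the most without WT cell 1, and 0 to 2 higher. Over all genes under the same filter the share lower, 10.6%, became 16.2% with no floor and 2.88% among those detected in all 8 cells. It was 3.39% with no filter, 14.2% with medians and 22.8% at 2-fold. The share higher, 2.75%, became 2.09% with scaling over all probes, 3.75% after quantile normalization and 1.34% at 10-fold. It was 12.6% at 2-fold and 3.65% with medians. Without single cells the shares were 9.79% to 16.4% lower and 2.31% to 4.72% higher. The median number of translation factors detected per cell became 44 when positive and significant signal counted as detection. Scaling with no floor moved the median of all present genes to 0.14, and normexp to 0.18. Restricting probes to the chromosome of their gene, chosen after seeing the data, left 28 genes present and the same 4 and 1 called. No reversal of a called direction was seen. No paired analysis was possible because a number on the slide links no cells, and nothing was tested. Detection limits the rest, since 31 of the 62 genes were not present.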
